A study of Homo sapiens with 6 samples.

Results

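The AP-1 family of transcription factors was examined through 10 genes, FOS, FOSB, FOSL1, FOSL2, JUN, JUNB, JUND, ATF3, BATF3 and JDP2. They were chosen by gene symbol from the 19475 symbols of the deposited mRNA table, and all 10 were found and passed the filter on low counts, which 13794 genes passed. RNA was sequenced from MH7A cells, a line of synovial fibroblasts from a joint with rheumatoid arthritis, immortalised with a viral T antigen. In the group called LED here, the cells had TNFα at 10 ng/ml and red light from a 630 nm LED, given for 15 min, 3 times (n = 3, replicates 4, 6 and 10). In the group called TNF, they had TNFα at 10 ng/ml alone (n = 3, replicates 2, 8 and 14). All cells thus had TNFα, and the comparison concerns what differed with light on top of it. Levels are given in CPM, a gene's estimated counts scaled to the library's total, and fold changes as the log2 of LED over TNF with the standard error of the fit.

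AP-1 factors bind DNA as dimers through a basic region and a leucine zipper. FOS proteins bind DNA only with a partner, usually a JUN protein, while JUN proteins can also pair among themselves. Members of the ATF, BATF and JDP branches can pair with JUN proteins. Growth factors, cytokines and stress activate the family through MAP kinases, and in synovial fibroblasts AP-1 is known for driving collagenase and cytokine genes together with NF-kB. FOS, FOSB, JUN, JUNB and ATF3 are early response genes, switched on quickly and for a short time, whereas JUND is made more steadily.

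None of the 10 members passed the test between the groups. Of the more abundant members, FOSL1, JUNB, JUND and FOSL2 had log2 fold changes between -0.30 and 0.17, and JUN had 0.67. The rapidly induced FOSB, FOS and ATF3 averaged 5.67-, 3.77- and 4.02-fold higher in LED than in TNF cells by the fit, with LED libraries that spread 7.54-, 7.82- and 16.3-fold, and BATF3 was 2.27-fold lower. The count of 0 of 10 members called stands beside 5.17% of all tested genes called in either direction (2.44% higher in LED cells and 2.73% lower) at an adjusted p below 0.05 (edgeR's quasi-likelihood test, Benjamini-Hochberg over all tested genes). At an unadjusted p below 0.05 there were 4 members (FOS, FOSB, ATF3 and BATF3), and 22.7% of all tested genes. DESeq2 called 2 members, FOSB and BATF3, and 12.7% of all genes it tested, while limma-voom called 0 members and 4.78% of genes. The groups did not overlap for 1 member above (FOSB) and 1 below (BATF3), against 16.2% of all tested genes in each direction. The median log2 fold change of the 10 members was 0.12, and that of all tested genes was 0.01.

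**Figure D1:**
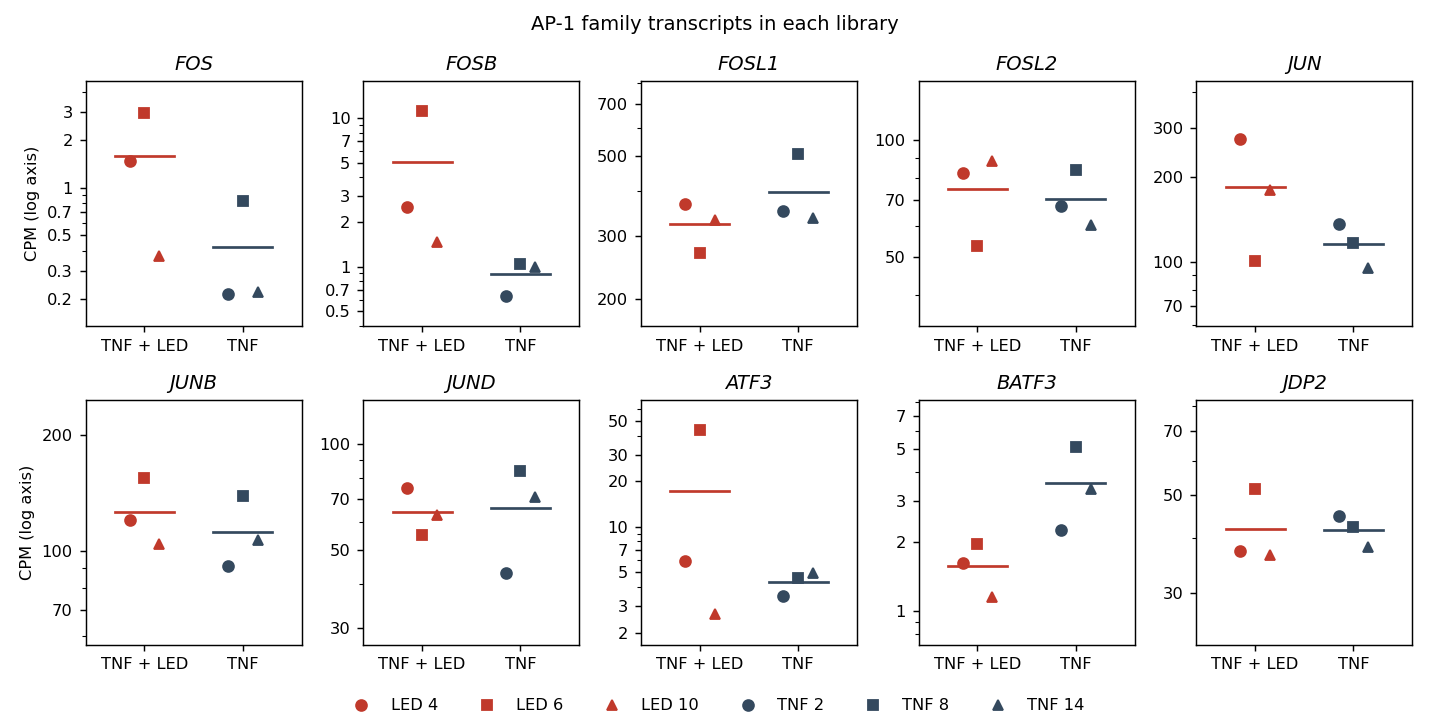
Level of each of the 10 genes in each library, in CPM on a log axis that differs between panels, with LED libraries in red, TNF libraries in dark blue-grey and a line at each group's mean. LED replicate 6 (red square) stands high for FOS, FOSB and ATF3, at 2.92, 11.1 and 43.4 CPM, while LED replicate 4 (red circle) is highest for JUN at 274 CPM.

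The promoters of FOS, FOSB and JUN are shown as examples of members highest in LED replicate 6 (FOS and FOSB) and in LED replicate 4 (JUN). ATF3, JUNB and JDP2 were also highest in LED replicate 6. RefSeq's table (GRCh38.p14) held windows, from 250 bases before to 50 bases after a start, for 8 of the 10 members, not for FOSL1 or BATF3. FOS is taken from chr14:75278578-75278877 (plus strand), FOSB from chr19:45467746-45468045 (plus strand) and JUN from chr1:58783998-58784297 (minus strand), each 5′ to 3′ in the direction of transcription. Capitals mark the short cyclic AMP site, TGACG, and in JUN also the cyclic AMP element with its middle base free, TGACNTCA.
FOS: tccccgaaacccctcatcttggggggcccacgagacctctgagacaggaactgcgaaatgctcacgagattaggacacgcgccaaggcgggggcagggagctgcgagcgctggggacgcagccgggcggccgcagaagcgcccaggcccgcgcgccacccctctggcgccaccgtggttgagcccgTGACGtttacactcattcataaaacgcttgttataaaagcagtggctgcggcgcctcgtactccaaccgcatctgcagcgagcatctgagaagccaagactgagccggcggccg
FOSB: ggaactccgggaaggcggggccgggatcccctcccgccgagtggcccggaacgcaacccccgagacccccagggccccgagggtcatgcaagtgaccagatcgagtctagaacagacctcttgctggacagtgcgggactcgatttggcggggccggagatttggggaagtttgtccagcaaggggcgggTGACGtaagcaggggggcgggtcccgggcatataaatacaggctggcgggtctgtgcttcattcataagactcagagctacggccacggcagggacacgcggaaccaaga
JUN: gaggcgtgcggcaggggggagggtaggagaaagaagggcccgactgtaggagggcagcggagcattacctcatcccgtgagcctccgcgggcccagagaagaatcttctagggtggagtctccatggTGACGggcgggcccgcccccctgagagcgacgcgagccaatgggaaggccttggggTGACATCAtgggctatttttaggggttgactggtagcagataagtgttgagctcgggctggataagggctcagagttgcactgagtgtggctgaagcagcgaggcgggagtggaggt

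The short site began 64 bases before the start in FOS, 60 in FOSB and 123 in JUN, and the JUN window also had TGACATCA 67 bases before its start, where JUN is known to bind its own promoter. Both strands were searched, and the short site can lie within a full cyclic AMP element. TGACG was in 24.6% of all 35116 windows of the table and TGACNTCA in 7.72%. The AP-1 site TGANTCA, found in 7.71% of windows, had no match in these windows of FOS, FOSB and JUN, and neither did the heat shock element NGAANNTTCNNGAAN, read in either phase and found in 0.478% of windows. Among the members' other windows, TGACNTCA was matched in JUND and in 1 of the 2 windows of ATF3, and TGANTCA in FOSL2. The CArG box, which serum response factor binds, was in 1.29% of windows and in no member's window. The NF-kB site, in 11.3% of windows, was matched in JDP2 alone among the members. Sites more than 250 bases before a start were not searched, so a missing match does not show that a gene lacks the site. These matches describe letters in the windows and were not tested against the expression values.

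FOSL1, known as Fra-1, lacks the activation domain of FOS and is known for its high level in many invasive cells. It had 367, 269 and 333 CPM in LED replicates 4, 6 and 10, and 353, 507 and 337 CPM in TNF replicates 2, 8 and 14. The groups overlapped, and the highest value, in TNF replicate 8, stood well above the other 5 libraries. Its log2 fold change was -0.30 ± 0.21 (SE, 95% interval -0.78 to 0.18, adjusted p = 0.443).

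FOSL2, or Fra-2, is the other FOS-related protein without that domain. Its level was 82.1, 53.3 and 88.5 CPM in the LED libraries, in the order given above, and 67.7, 83.8 and 60.3 CPM in the TNF libraries. LED replicate 6 was the lowest of all 6, below each TNF library, while the other LED libraries lay at or near the top of the range. Between the groups the log2 fold change was 0.08 ± 0.23 (95% interval -0.43 to 0.59, adjusted p = 0.871). With LED replicate 6 and TNF replicate 8 both left out it was 0.42 (adjusted p = 0.0403 in edgeR's test). These libraries held its lowest LED and highest TNF values, so leaving them out raises the fold change by itself. That fit called 763 genes higher and 906 lower of 13860 tested.

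FOSB, which like FOS carries an activation domain, had 2.51, 11.1 and 1.47 CPM in LED replicates 4, 6 and 10, against 0.637, 1.03 and 0.992 CPM in TNF replicates 2, 8 and 14. Every LED library was above every TNF library, and LED replicate 6 was 7.54 times as high as LED replicate 10. The values were low in reads, at about 66.5, 280 and 35.5 fragments in LED cells and 17.8, 26.3 and 21.5 in TNF cells, taking 4 deposited units as 1 fragment. FOSB had the lowest p of the family, with a log2 fold change of 2.50 ± 0.68 (95% interval 0.98 to 4.03, adjusted p = 0.0654). It passed with DESeq2 (adjusted p = 0.000685) and without LED replicate 10 (0.0398), and without LED replicate 6 its log2 fold change was 1.17 (0.219). Over the 16 alternatives its adjusted p lay between 0.000685 and 0.219. The gene's span overlaps that of ERCC1, a DNA repair gene on the opposite strand, with 0 shared exon bases in GENCODE release 29, and ERCC1 had a log2 fold change of 0.04 (adjusted p = 0.928).

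FOS, the founding member and a classic marker of recent stimulation, rested on few reads, with 9 to 73.5 fragments in LED cells and 4.75 to 21 in TNF cells. It had 1.47, 2.92 and 0.373 CPM in the LED libraries and 0.215, 0.827 and 0.219 CPM in the TNF libraries, where 12 units, or about 3 fragments, correspond to 0.108 to 0.138 CPM. LED replicates 4 and 6 were above every TNF library, while LED replicate 10 lay below TNF replicate 8. The log2 fold change was 1.91 ± 0.78 (95% interval 0.16 to 3.67, adjusted p = 0.184). It was 1.13 without LED replicate 6 and 2.86 without TNF replicate 8, and FOS passed in none of its 15 alternatives.

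**Figure D2:**
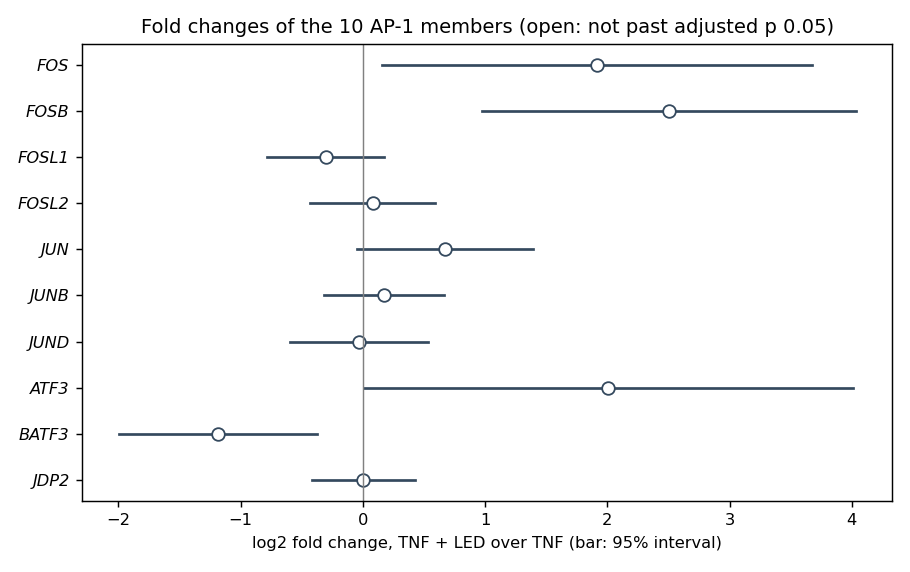
Log2 fold change of each member, LED over TNF, with a bar for its 95% interval from edgeR's fit of 3 against 3 libraries. All points are open since none passed the adjusted threshold, and FOSB, FOS and ATF3 have the widest intervals, with that of FOSB running from 0.98 to 4.03.

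JUN, the main activating partner of FOS proteins, differed most among the LED libraries of the JUN group. Its level was 274, 101 and 180 CPM in LED replicates 4, 6 and 10, and 137, 117 and 95.1 CPM in TNF replicates 2, 8 and 14. LED replicates 4 and 10 were above all TNF libraries and LED replicate 6 lay within the TNF range, whereas that library was the highest for FOSB. JUN had a log2 fold change of 0.67 ± 0.32 (95% interval -0.05 to 1.39, adjusted p = 0.254). It was 0.97 without LED replicate 6 (0.127) and 0.29 without LED replicate 4 (0.684).

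JUNB, a weaker activator that can oppose JUN, had 120, 154 and 104 CPM in LED cells and 91.2, 139 and 106 CPM in TNF cells. The groups overlapped through most of their range, with LED replicate 6 the highest. JUNB had a log2 fold change of 0.17 ± 0.22 (95% interval -0.32 to 0.66, adjusted p = 0.694). In the annotation 14.2% of the exon bases of JUNB are shared with HOOK2 on the opposite strand, and HOOK2 had 8.19 to 10.1 CPM in LED cells and 7.27 to 9.01 CPM in TNF cells. The sources used here do not state whether reads were counted by strand.

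JUND, the steadily made JUN protein, had 75.1, 55.0 and 62.9 CPM in LED cells and 43.1, 83.8 and 70.7 CPM in TNF cells. The LED values all lay inside the TNF range. JUND had a log2 fold change of -0.03 ± 0.25, with a 95% interval of -0.60 to 0.53 and an adjusted p of 0.954, and its sign differed with the scaling and the libraries kept.

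ATF3, a stress-induced factor that represses as a dimer with itself, had the widest spread of the family. It stood at 5.98, 43.4 and 2.67 CPM in LED replicates 4, 6 and 10, against 3.47, 4.58 and 4.91 CPM in TNF replicates 2, 8 and 14. LED replicate 6 was 16.3 times as high as LED replicate 10, which was the lowest of all 6 libraries. On the log2(CPM + 0.5) scale the SD among LED libraries was 1.96, larger than that of 99.96% of tested genes, while the SD among TNF libraries was 0.24, larger than that of 47.8%. The log2 fold change was 2.01 ± 0.87 (95% interval 0.01 to 4.01, adjusted p = 0.219), and without LED replicate 6 it was 0.0028 (adjusted p = 0.998), so the difference between group means rested on that library.

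BATF3, which pairs with JUN proteins and is best known from dendritic cells, was the member whose LED values all lay below the TNF values. Its level was 1.61, 1.96 and 1.15 CPM in LED replicates 4, 6 and 10, and 2.24, 5.13 and 3.38 CPM in TNF replicates 2, 8 and 14. The highest LED value, in replicate 6, lay just under the lowest TNF value, in replicate 2. The log2 fold change was -1.19 ± 0.36 (95% interval -1.99 to -0.38, adjusted p = 0.0902), and it lay between -1.45 and -0.84 with any single library left out. BATF3 passed with DESeq2 (adjusted p = 0.0249) and without TNF replicate 2 (0.0454), and over the 16 alternatives its adjusted p reached 0.225.

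JDP2, a repressor that pairs with JUN and other members, was among the most even. It had 37.5, 51.7 and 36.7 CPM in LED cells and 44.9, 42.4 and 38.1 CPM in TNF cells. LED replicate 6 was the highest and the other LED libraries were the lowest. JDP2 had a log2 fold change of 0.01 ± 0.19 with a 95% interval of -0.42 to 0.43 (adjusted p = 0.991), and its sign differed with the scaling and the libraries kept.

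Set per kilobase of exon, so that genes can be compared, FOSL1 was the most abundant member in every library. It averaged 171 ± 26.3 CPM per kb in LED cells and 211 ± 49.7 in TNF cells (SD, n = 3 each). JUNB followed at 69.3 ± 14.2 in LED and 61.6 ± 13.4 in TNF cells. JUN stood at 52.3 ± 24.5 in LED and 32.9 ± 5.89 in TNF cells, and JUND at 34.5 ± 5.42 in LED and 35.4 ± 11.1 in TNF cells. JUNB and JUN in LED cells, and JUND and JUN in both groups, did not differ beyond their spread. FOSL2 (10.4 ± 2.62 in LED and 9.87 ± 1.68 in TNF cells) and JDP2 (6.72 ± 1.35 and 6.70 ± 0.550) came next, close to each other in LED cells. ATF3, BATF3, FOSB and FOS were at or below 1.89 CPM per kb in every library, except for ATF3 at 10.7 and FOSB at 2.00 in LED replicate 6. These levels used the union of GENCODE release 29 exons of each symbol.

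All 10 members summed to 399, 316 and 338 CPM per kb in LED replicates 4, 6 and 10, and to 317, 445 and 319 in TNF replicates 2, 8 and 14, so the groups overlapped. FOSL1 made up 48.8%, 45.2% and 52.2% of the sum in the LED libraries, against 58.9%, 60.4% and 55.9% in the TNF libraries. These shares did not overlap between the groups, although the CPM of FOSL1 did. For 32.4% of all tested genes the CPM of the groups did not overlap, in either direction. The share of JUN was 19.4%, 9.06% and 15.1% in LED cells and 12.2%, 7.45% and 8.42% in TNF cells, with LED replicate 6 inside the TNF range. JUNB took 26.9% in LED replicate 6 and 15.8% to 18.3% in the other 5 libraries. No test was made of these shares, since the list of members sets them.

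**Figure D3:**
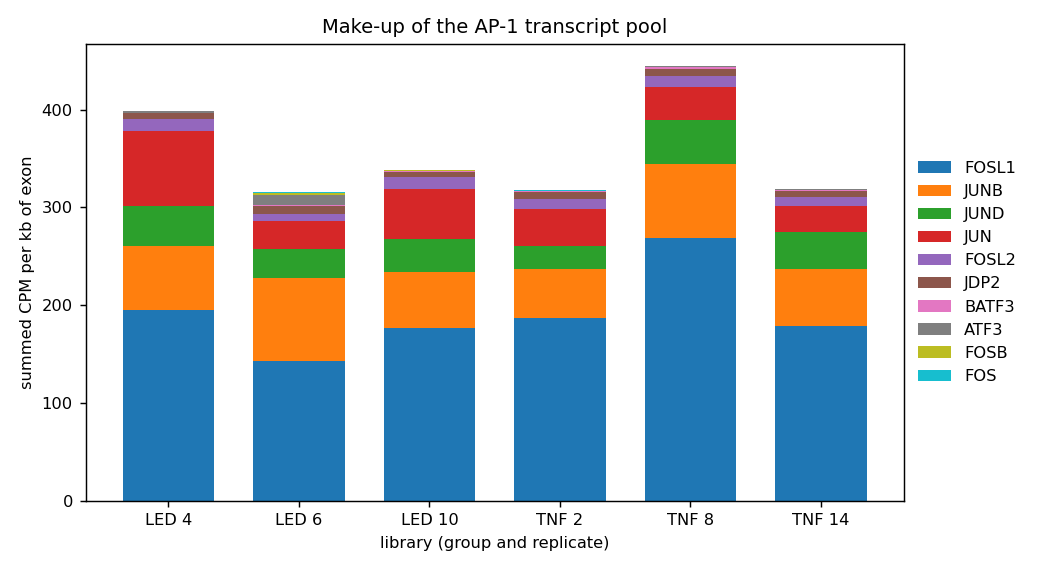
Stacked levels of the 10 members in each library, in CPM per kilobase of exon, with LED libraries on the left and TNF libraries on the right. FOSL1 (bottom, blue) fills 45.2% to 52.2% of the LED bars and 55.9% to 60.4% of the TNF bars, and the JUN segment (red) is tallest in LED replicate 4.

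The members were highest in different LED libraries. LED replicate 6 was the highest of all 6 libraries for 5 members (FOS, FOSB, JUNB, ATF3 and JDP2) and the lowest for FOSL1 and FOSL2, while 25.2% of all tested genes were highest there and 23.7% lowest. LED replicate 4 was highest for JUN and LED replicate 10 for FOSL2. Relative to its 6-library mean, JUN was 0.96 higher in LED replicate 4 and -0.47 in LED replicate 6 on the log2(CPM + 0.5) scale, while FOSB was 0.34 and 2.29. TNF replicate 8 was highest for the remaining 3 members, FOSL1, JUND and BATF3, and for 28.7% of all tested genes, while TNF replicate 2 was lowest for 4 members (FOS, FOSB, JUNB and JUND) and for 12.9% of genes.

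**Figure D4:**
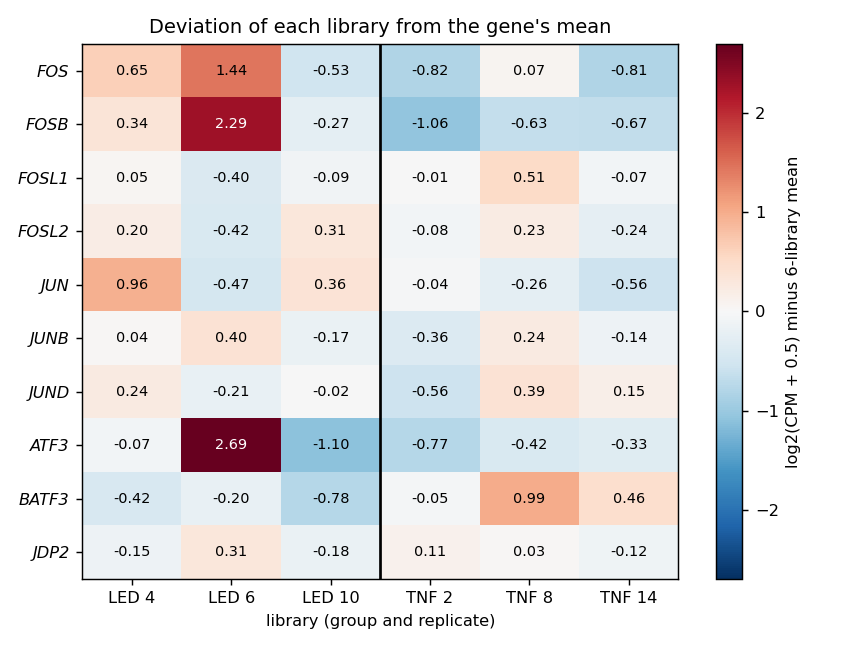
Deviation of log2(CPM + 0.5) from each gene's mean over the 6 libraries, with LED libraries left of the line and red for higher. The LED replicate 6 column holds the 3 largest values (2.69 for ATF3, 2.29 for FOSB and 1.44 for FOS) beside negative ones for FOSL1, FOSL2, JUN, JUND and BATF3.

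The stress transcripts HSPA1A and DDIT3 were also highest in LED replicate 6, while the early response gene EGR1 was highest in LED replicate 4 (82.9 against 61.2 CPM). The inducible chaperone HSPA1A had 6010, 10652 and 3645 CPM in LED replicates 4, 6 and 10, and 81.1 to 189 CPM in TNF cells. Genes with symbols starting in HSP, DNAJ or BAG took 4.78%, 6.55% and 3.64% of counts in the LED libraries and 1.34% to 1.57% in the TNF libraries. DDIT3, the stress factor CHOP, which dimerises with ATF3, had 35.8, 113 and 23.4 CPM in LED cells and 11.4 to 25.9 CPM in TNF cells. The proliferation marker MKI67 was highest in TNF replicate 8, at 259 CPM, against 83.3 to 102 CPM in LED cells and 158 and 203 CPM in the other TNF libraries. These genes were picked after their values were seen, and the part of such differences between libraries in the AP-1 values was not tested.

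Deposited totals were 94615430 to 108074289 estimated counts in LED cells and 86000253 to 107139947 in TNF cells. Of 15 fibroblast markers 14 were detected, with sums of 27146 to 28890 CPM in LED and 31787 to 34164 CPM in TNF cells. Of 10 macrophage markers 5 were detected, which summed to 115 to 155 CPM in LED and 93.5 to 139 CPM in TNF cells, with AIF1, TYROBP, FCGR3A and C1QA listed at 0. Of 8 endothelial markers 7 were detected, which summed to 75.0 to 93.5 CPM in LED and 94.4 to 128 CPM in TNF cells, with CDH5 at 0. For lymphocytes 2 of 8 markers were detected, which summed to 59.0 to 68.0 CPM in LED and 57.1 to 73.0 CPM in TNF cells, with CD3D, CD3E, CD2, CD8A and MS4A1 among those at 0. For epithelial cells 4 of 8 markers were detected, which summed to 37.4 to 56.1 CPM in LED and 34.6 to 41.3 CPM in TNF cells, with KRT5 and ESRP1 at 0. All samples were of the MH7A line, and in bulk RNA these sums give transcript levels, not numbers of cells of each type.

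By distance between centred log2(CPM + 0.5) profiles over the 6 libraries, the genes nearest to FOSB, the member with the lowest p, were HLX (0.42), RRAD (0.52) and PNLDC1 (0.66). HLX is a homeobox factor, RRAD a small GTPase of the Ras superfamily and PNLDC1 an exonuclease that in mice trims piRNAs. HLX had 21.8, 75.7 and 18.4 CPM in LED cells and 9.22 to 11.9 CPM in TNF cells. RRAD stood at 68.0, 225 and 43.9 CPM in LED cells and 19.2 to 25.0 CPM in TNF cells. PNLDC1 was at 2.74, 10.5 and 2.30 CPM in LED cells and 0.699 to 0.778 CPM in TNF cells. All 3 were highest in LED replicate 6, with LED above TNF in every library, as for 16.2% of all tested genes. RRAD and PNLDC1 passed edgeR's test (adjusted p = 0.0393 and 0.0302) while HLX did not (0.0596). Since the 3 genes were picked for a profile like that of FOSB, this pattern follows from the choice and is no separate result. With single libraries left out, RRAD passed without LED replicate 10 alone (adjusted p otherwise up to 0.112), and PNLDC1 missed the threshold without LED replicate 6 or TNF replicate 8 or 14 (up to 0.0914).

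Of 26 tested other basic leucine zipper factors that can pair with AP-1 proteins, 2 rose, none fell and 24 did not pass. The called share was 7.69% of the list beside 5.17% of all tested genes, and the median log2 fold change was 0.24. BACH2, a repressor that pairs with small MAF proteins, rose to 2.80, 1.89 and 3.14 CPM in LED cells, against 1.11, 0.709 and 0.900 CPM in TNF cells (log2 1.52 ± 0.33, adjusted p = 0.0364). With single libraries left out, BACH2 passed without TNF replicate 2 alone (adjusted p otherwise up to 0.131).

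Of 33 tested genes of the MAP kinase cascades that act on AP-1, 0 were higher and 2 fell, which left 31 that missed the threshold, a share of 6.06% beside 5.17% of all tested genes, and the median was -0.01. RPS6KA1, the kinase RSK1 downstream of ERK, fell to 1.18, 1.23 and 1.57 CPM in LED cells, against 3.42, 5.94 and 4.04 CPM in TNF cells (log2 -1.75 ± 0.30, adjusted p = 0.0172). MAPK12, which encodes p38 gamma, fell to 20.4, 21.6 and 21.4 CPM in LED cells, against 33.4, 38.3 and 31.0 CPM in TNF cells (log2 -0.69 ± 0.16, adjusted p = 0.0455). RPS6KA1 lost its call without LED replicate 4 or 6 or TNF replicate 14 (up to 0.0952), and MAPK12 passed among these omissions in that of TNF replicate 8 alone (otherwise up to 0.182).

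Among 11 tested genes for serum response factor, its MKL cofactors, ETS-type factors and MEF2 factors, 1 rose, none fell and 10 did not pass. The called share was 9.09% of the list beside 5.17% of all tested genes, with a median of -0.06. ETS1, which often acts beside AP-1 at matrix protease promoters, rose to 257, 332 and 236 CPM in LED cells, against 110, 119 and 122 CPM in TNF cells (log2 1.23 ± 0.18, adjusted p = 0.0115, and 0.0530 without TNF replicate 14). Of 19 ubiquitin ligases, RNA decay proteins, cofactors and scaffolds that act on AP-1 proteins or transcripts, none passed with edgeR, DESeq2 or limma-voom. These tools called 5.17%, 12.7% and 4.78% of all genes they tested. At an unadjusted p below 0.05 in edgeR's test there were 2 of the 19, and 22.7% of all tested genes. HNRNPD, the RNA decay factor AUF1, had 147, 144 and 154 CPM in LED cells and 192, 233 and 196 CPM in TNF cells (log2 -0.48 ± 0.16, adjusted p = 0.118). MAPK8IP3, a scaffold for the kinase JNK, had 46.1, 55.6 and 46.0 CPM in LED cells and 38.0, 29.9 and 37.1 CPM in TNF cells (0.49 ± 0.18, adjusted p = 0.136).

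Genes known as AP-1 targets were called in both directions: 3 of 32 tested rose, 3 fell and 26 did not pass, with a median of -0.15. The called share was 18.8% of the list beside 5.17% of all tested genes. Since the list was chosen with earlier results of these data known, its share is no measure of enrichment. HMOX1, which encodes heme oxygenase and is also a target of NRF2, rose to 128, 134 and 47.5 CPM in LED cells, against 20.6, 33.2 and 17.5 CPM in TNF cells (log2 2.11 ± 0.40, adjusted p = 0.0251). PLAU, the urokinase gene, fell to 560, 671 and 705 CPM in LED cells, against 2480, 2598 and 2411 CPM in TNF cells (log2 -1.95 ± 0.18, adjusted p = 0.00159). The chemokine gene CXCL8 fell to 531, 747 and 915 CPM in LED cells, against 2429, 1765 and 2811 CPM in TNF cells (log2 -1.68 ± 0.26, adjusted p = 0.0122). The cytokine gene IL1B fell to 18.8, 17.0 and 32.8 CPM in LED cells, against 53.0, 59.6 and 98.9 CPM in TNF cells (-1.62 ± 0.32, adjusted p = 0.0281). For HMOX1, PLAU, CXCL8 and IL1B alike the groups did not overlap, as for 32.4% of all tested genes in either direction. LIF (1.68, adjusted p = 0.0475) and VEGFA (1.22, adjusted p = 0.0364), a cytokine and an angiogenic growth factor singled out after their values were seen, also passed edgeR's test. Whether LIF and VEGFA kept their calls with single libraries left out was not examined. PLAU passed whichever library was dropped. The calls of HMOX1 and IL1B were lost without LED replicate 4 or 6 or TNF replicate 14 (up to 0.118 and 0.131) and that of CXCL8 without LED replicate 4 or 6 (up to 0.0738).

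Of 28 tested early response genes outside the family, 2 rose, 1 fell and 25 did not pass, 10.7% of the list beside 5.17% of all tested genes, with a median of 0.32. NR4A1, an orphan nuclear receptor, rose to 22.7, 19.8 and 9.96 CPM in LED cells, against 3.47, 6.80 and 5.58 CPM in TNF cells (log2 1.73 ± 0.35, adjusted p = 0.0304). EGR3, a zinc finger factor, also passed (adjusted p = 0.0418), at 0.462, 0.348 and 0.456 CPM in LED cells and 0.0359, 0.0394 and 0 CPM in TNF cells. Its TNF values lie under the limit that a count of 0 allows, so no fold is given. CTGF, a matricellular protein, fell to 247, 183 and 260 CPM in LED cells, against 649, 766 and 739 CPM in TNF cells (log2 -1.64 ± 0.19, adjusted p = 0.00461). NR4A1 lost its call without LED replicate 4 or 6 or TNF replicate 14 (up to 0.132) and EGR3 without any 1 library (up to 0.143), while CTGF kept it in each case.

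**Figure D5:**
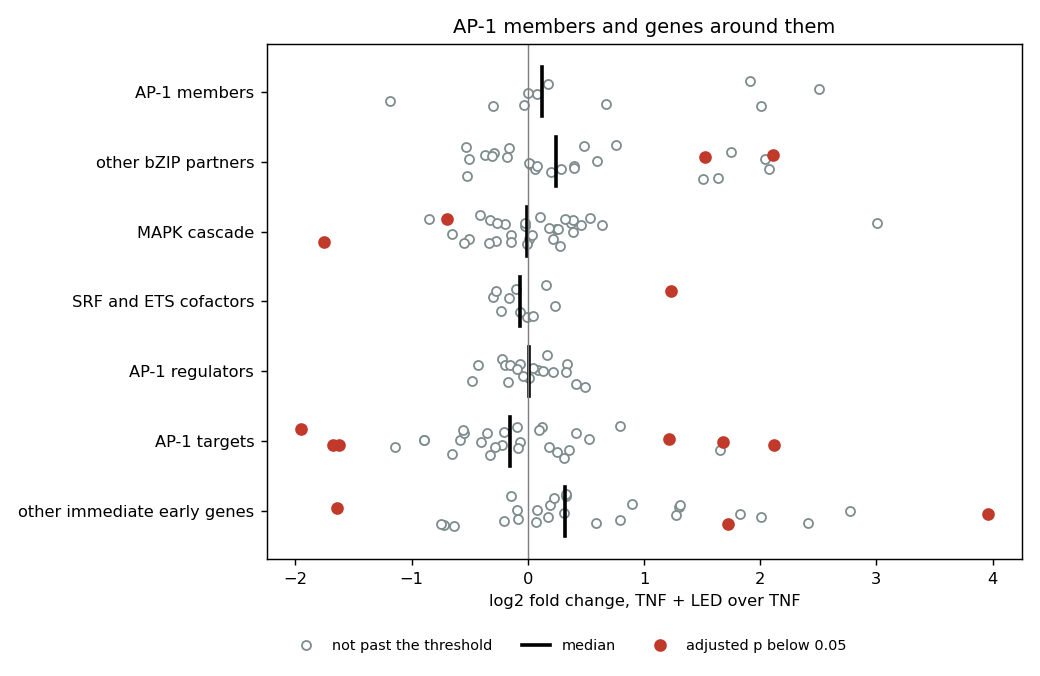
Log2 fold change, LED over TNF, of the AP-1 members and of each list of genes around them, with filled points for genes past an adjusted p of 0.05 and a bar at each median. The member row has 0 filled points and a median of 0.12, and the AP-1 target row has 3 filled points on each side. The point at the far right is EGR3, whose TNF values are under 12 units, so its position depends on the fit's prior count.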

How the data were processed

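Per the labels' protocols, total RNA of 6 MH7A samples was cleared of ribosomal RNA and reverse transcribed with random primers. The authors deposited estimated counts per gene symbol, given as whole numbers, so no rounding was needed. Per the submitters' processing notes, bcl2fastq 2.0, HISAT2, StringTie, DESeq2 and limma were used, with no role given, and the build named is mm10, although samples and symbols are human. The sources used here give no human build for the files. Of values from 1 to 7 in the deposited counts, 67.2% equalled 4 or 5, so 1 fragment appeared to be worth about 4 units, and 3 fragments, or 12 units, was taken as the limit that a count of 0 allows. Totals were thus about 21500063 to 27018572 fragments per library. Floors cover counting error only.

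LED (n = 3) was set against TNF (n = 3) in edgeR 4.0.16 (R 4.3.3), by its quasi-likelihood test (filterByExpr, TMM, robust, two-sided, Benjamini-Hochberg over all tested genes, threshold 0.05). CPM used TMM-scaled totals, an SE is the fold change over the square root of F, and 95% intervals use the fit's degrees of freedom. The groups share no replicate numbers. Alternatives were other scalings and filters, DESeq2 1.42.0, limma-voom (limma 3.58.1), counts divided by 4, libraries left out and other thresholds. No library was a copy of another (chi-square per degree of freedom at least 26.8 within groups). Nothing in the labels states that the samples were grown as separate cultures, and the p-values therefore reflect spread among samples that may be technical. The members and lists were chosen with earlier results of these data known. Named genes were all members, for each list the called genes of lowest p, at most 4 (2 genes for a list without calls), and the 3 genes nearest to the member with the lowest p. Of the genes this rule names, 1 is not reported here.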

Additional observations from a re-analysis of the deposited data

How the results depend on the processing

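With 16 alternatives for fold changes, no member passed under other scalings, other filters, limma-voom, counts divided by 4 or scaling without heat shock genes, although FOS fell below the filter of a mean of 1 CPM and was not tested there. Members called higher and lower numbered 1 and 1 with DESeq2, 1 and 1 at an adjusted p below 0.10, and 1 and 0 with LED replicate 6 and TNF replicate 8 both left out; each ranged from 0 to 1 with single libraries left out. Over all genes, 336 were higher and 377 lower. These counts were 874 and 879 with DESeq2, 763 and 906 with both libraries left out, 53 and 17 at an adjusted p below 0.01, 695 and 776 at 0.10, and 59 to 314 and 21 to 423 with single libraries left out, where fewer samples were fitted (83 and 33 without LED replicate 4, 59 and 21 without LED replicate 6, 143 and 76 without LED replicate 10 and 70 and 43 without TNF replicate 14). Signs turned for members near 0. JDP2 was -0.041 with library totals, -0.011 with limma-voom, -0.16 without both libraries and -0.17 to 0.093 with single libraries left out. JUND was 0.0099 with limma-voom, 0.28 without both libraries, 0.020 with scaling that left out heat shock genes and -0.28 to 0.18 with single libraries left out. FOSL1 was 0.025 without both libraries, FOSL2 -0.062 to 0.27 and JUNB -0.00077 to 0.35 with single libraries left out. Of 26 zipper partners, edgeR, DESeq2 and limma-voom called 2, 5 and 2, and of 33 MAP kinase genes 2, 5 and 2. Of 32 AP-1 targets they called 6, 11 and 6, and of 28 other early response genes 3, 10 and 3. Of all genes tested they called 5.17%, 12.7% and 4.78%. Beyond single omissions, calls were lost for BACH2 with library totals, where its adjusted p was just above the threshold, EGR3 with no filter (adjusted p = 0.0639), RRAD and PNLDC1 with limma-voom (0.0550 and 0.0835), MAPK12 with scaling that left out heat shock genes (0.0577), and HMOX1, IL1B, NR4A1 and EGR3 without both libraries (0.160, 0.172, 0.130 and 0.0506). The causes were not tested. FOS, FOSB and BATF3 rest on few fragments, and the part of this in the width of their intervals was not tested either.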

Other observations

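CEBPB, a leucine zipper factor of the inflammatory response, split the libraries across both groups. It had 282, 8.18 and 281 CPM in LED replicates 4, 6 and 10, and 186, 8.45 and 6.67 CPM in TNF replicates 2, 8 and 14. It was singled out after its values were seen. Of 8986 genes with a mean of at least 10 CPM and every library at or above 12 units, 2 ranged at least 20-fold within both groups, CEBPB and LUZP6. LUZP6 had 121, 2.75 and 78.7 CPM in the LED libraries and 132, 1.41 and 74.0 CPM in the TNF libraries. No cause was tested.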
